A study of Acipenser schrenckii with 2 samples.

Results

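The blood, vessel and immune cell miRNAs of the gonad were 47 of the 663 miRNA probes on the chip, chosen by name alone: every probe, of any species prefix, letter or arm, for miR-126, miR-142, miR-144, miR-146, miR-150, miR-155, miR-181, miR-223, miR-451, miR-462 or miR-731. The study hybridised 2 single-colour Cy3 chips, 1 with gonad RNA of a female and 1 with gonad RNA of a male Amur sturgeon (Acipenser schrenckii), both 11 months old and labelled normal, sampled early in sex differentiation per the labels. With 1 fish and 1 chip per sex, the sexes and the 2 individuals cannot be told apart, no test between them was possible, and every ± below is an SD over 5 repeat spots of a probe on a chip, which is technical. Gonad tissue holds vessels, blood and immune cells beside germ and somatic cells, and in such bulk RNA fewer cells of a type and less miRNA per cell cannot be told apart.

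MicroRNAs are short RNAs that guide a silencing complex to mRNAs, largely through their seed, bases 2 to 8. Several are so strongly tied to a lineage that they serve as its markers. miR-126 lies in an intron of the endothelial gene Egfl7 and keeps vessels intact in zebrafish and mice. miR-144 and miR-451 are made from a common transcript of red cell precursors, and miR-451 is unusual in being cut by Argonaute 2 and not by Dicer. miR-223 marks granulocytes and other myeloid cells, and miR-142 is found across the blood lineages. miR-146 is induced by NF-kappaB and damps Toll-like receptor signalling, and miR-155 rises in activated lymphocytes and macrophages. miR-150 is abundant in mature lymphocytes, and miR-181a, which also occurs in many other tissues, tunes T cell receptor signalling in mice. miR-462 and miR-731 form a cluster of fishes known to be induced by interferon. These roles sort the probes into 6 groups: endothelial (miR-126, 6 probes), erythroid (miR-144 and miR-451, 6), myeloid (miR-223, 3), general leukocyte (miR-142, miR-146 and miR-155, 13), lymphoid (miR-150 and miR-181, 14) and interferon-linked (miR-462 and miR-731, 5).

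The probes were designed on miRNAs of other fishes, with dre for zebrafish, ola for medaka (Japanese killifish in the files), ipu for channel catfish, ccr for common carp, hhi for Atlantic halibut, pol for olive flounder and tni for Tetraodon pufferfish. Many of the 47 targets are versions of a miRNA that differ by a base at an end or by a substitution, and the results below turn on such versions. Targets are given 5′ to 3′ as the deposited files list them, with the seed in capitals, first for the vessel and red cell miRNAs.
ccr-miR-126-3p: cUCGUACCgugaguaauaaugc
ipu-miR-126a: uCGUACCGugaguaauaaugca
dre-miR-126a-3p: uCGUACCGugaguaauaaugc
ola-miR-126-3p: uCGUACCGugaguaauaaug
dre-miR-126b-3p: uCGUACCGugaguaauagugca
dre-miR-126a-5p: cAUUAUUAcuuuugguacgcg
pol-miR-144-5p: gGAUAUCAucuuauacuguaagu
ola-miR-144: aGGAUAUCaucuuauacuguaa
ccr-miR-144: cUACAGUAuagaugauguacu
pol-miR-144-3p: uACAGUAUagaugauguacuau
dre-miR-144: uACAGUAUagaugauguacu
dre-miR-451: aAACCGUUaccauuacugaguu

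The next set shows the miR-223 and miR-142 probes, which include a pair of targets whose readings went opposite ways and a substitution that went with loss of detection.
ola-miR-223: uGUCAGUUugucaaauaccc
dre-miR-223: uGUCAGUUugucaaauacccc
ipu-miR-223: gAGUAUUUgacagacugugg
ccr-miR-142-3p: gUAGUGUUuccuacuuuaugg
ipu-miR-142: gUAGUGUUuccuacuuuaugga
dre-miR-142a-3p: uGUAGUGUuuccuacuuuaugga
dre-miR-142a-5p: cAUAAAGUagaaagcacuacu
tni-miR-142b: cAUAAAGUagaaagcacuacua
ola-miR-142: uCCAUAAAguagaaagcacuac
ccr-miR-142-5p: cAUAAAGUagacagcacuacu
dre-miR-142b-5p: cAUAAAGUagacagcacuacua

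The last set shows the miR-181a probes of both arms, miR-181b and miR-181c, the miR-150 probes and the interferon-linked miRNAs.
ola-miR-181a-5p: aACAUUCAacgcugucggu
ccr-miR-181a: aACAUUCAacgcugucgguga
ipu-miR-181a: aACAUUCAacgcugucggugag
dre-miR-181a-5p: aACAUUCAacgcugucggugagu
dre-miR-181b: aACAUUCAuugcugucgguggg
dre-miR-181c: cACAUUCAuugcugucgguggg
ola-miR-181a-3p: aCCAUCGAccguugacuguac
dre-miR-181a-3p: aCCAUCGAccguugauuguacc
ola-miR-150: aCUCCCAAuccuuguaccagu
dre-miR-150: uCUCCCAAuccuuguaccagug
dre-miR-462: uAACGGAAcccauaaugcagcu
ipu-miR-462: uAACGGAAcccauaaugcagcug
ola-miR-462: gUAACGGAacccauaaugc
dre-miR-731: aAUGACACguuuucucccggaucg

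The 47 targets hold 23 different seeds. The largest seed group was that of the miR-181 5p probes, whose 9 members share bases 2 to 8 although miR-181a, miR-181b and miR-181c differ elsewhere. A base or 2 added at the 5′ end shift the seed, so ccr-miR-126-3p, ccr-miR-144, dre-miR-142a-3p, ola-miR-142, ola-miR-144 and ola-miR-462 each carry a seed that their near-copies do not.

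Of the 47 probes, 41 were detected on both arrays and 6 on neither, and no probe was detected on 1 array only. On the whole chip 490 probes were detected on at least one array and 416 of them on both. Detection asked for 3 or more of the 5 spots of a probe to be brighter than 95% of the empty spots on that array. The undetected probes were dre-miR-126a-5p, ipu-miR-223 (a target of the other arm of the hairpin than the zebrafish and medaka miR-223 probes), ccr-miR-142-5p, dre-miR-142b-5p, ola-miR-181b-3p and ola-miR-731. All 11 miRNAs were thus seen in both gonads through at least one probe at this limit. With the 99th percentile of the empty spots as limit (238 female, 182 male), dre-miR-731 and dre-miR-144 were not detected in the female. Their highest female spots were at 152 and 164, and their lowest male spots at 198 and 227. At that limit miR-731 was thus seen in the male only. As for the tissue itself, miR-202, known from vertebrate gonads, was detected on both arrays through ipu-miR-202 alone. It read 6.68 ± 0.12 (female) and 8.58 ± 0.31 (male), higher in the male by 1.90. The probes dre-miR-202-5p and dre-miR-202-3p were not detected on either array. As the undetected dre-miR-202-3p read 6.66 on the female array, the female signal of ipu-miR-202 was close to background. Levels here are log2 intensities after background correction and quantile normalization between the arrays. Probes bind with different strength, so a brighter probe does not show a more abundant miRNA.

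**Figure D1:**
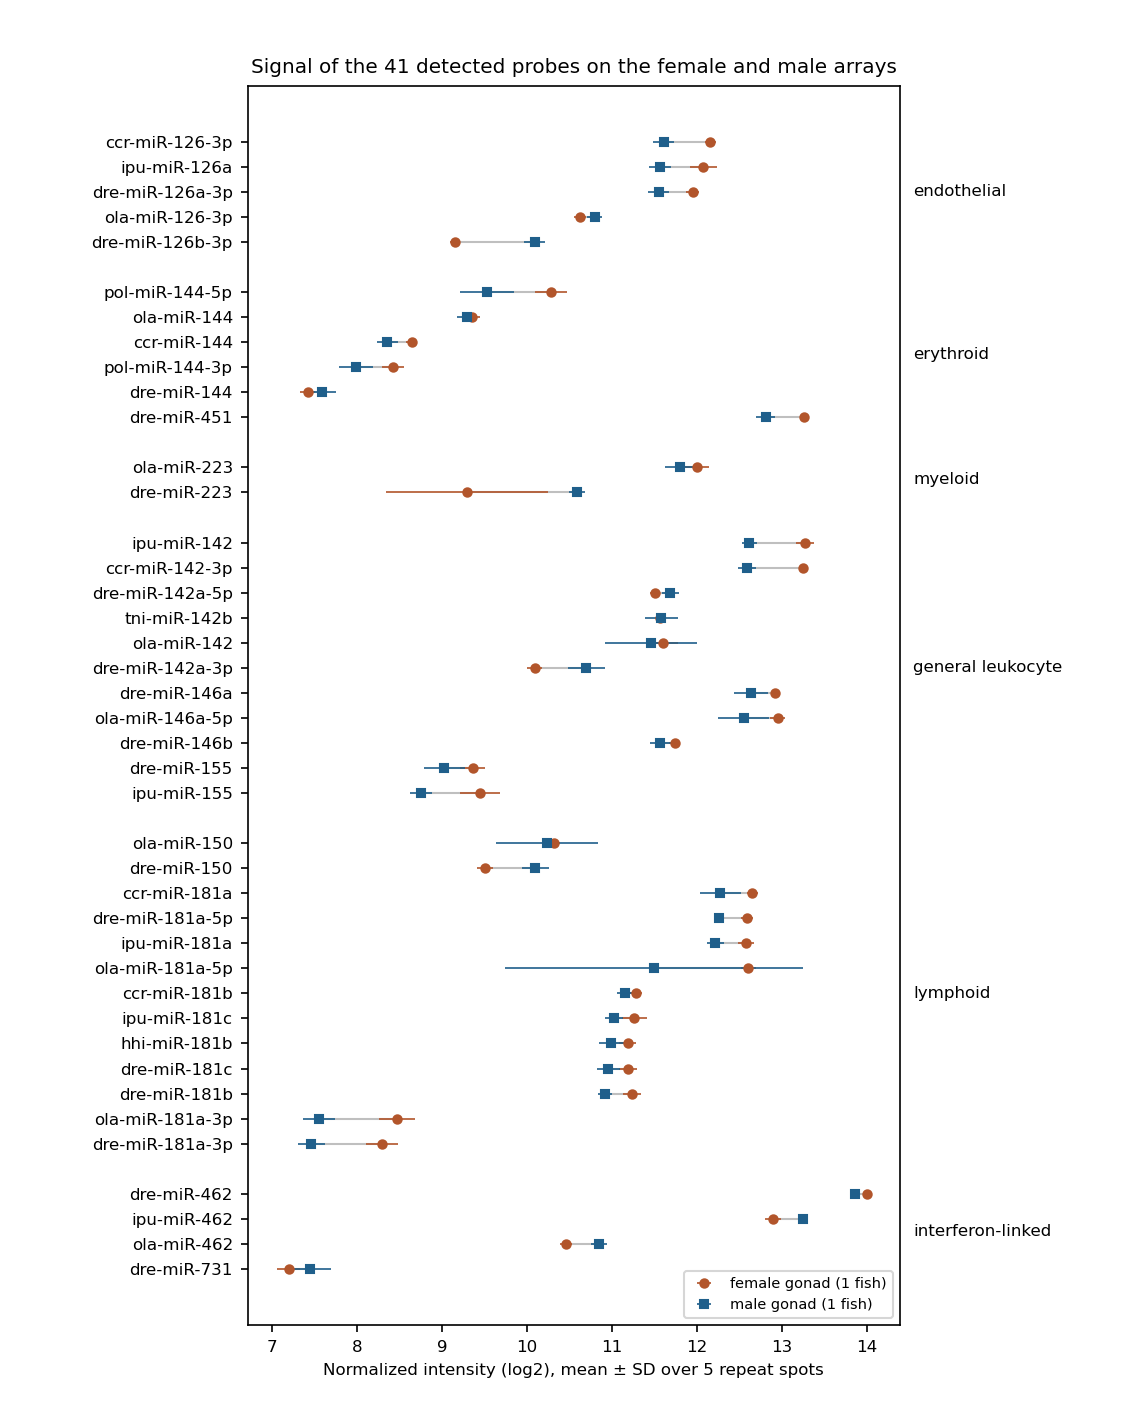
Normalized log2 intensity (horizontal axis) of the 41 detected probes, sorted by group, in the female gonad (circles) and male gonad (squares), with bars of 1 SD over 5 repeat spots. Most pairs of symbols lie close together, the long bars of dre-miR-223 and ola-miR-181a-5p come from 1 low spot each, and related probes of miR-126 and miR-142 lie apart in brightness and, after normalization, in the sign of their difference.

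Few probes differed between the gonads by the size asked for here, among the blood, vessel and immune miRNAs as on the whole chip. To count as higher in a gonad, a probe had to be detected there and to exceed the other array by 1 or more (log2), with every spot above every spot of the other array. By this rule 1 of the 41 detected probes, dre-miR-223, was higher in the male gonad, against 4.69% of all 490 detected probes on the chip, and 1, ola-miR-181a-5p, was higher in the female gonad, against 1.63% of all. Both calls rested on 1 low spot and both fell short of the size limit without it, as described below. Far spots were those over 0.5 (log2) from the median of their probe. Values with far spots left out exclude them for all probes, on both arrays, before normalization, so probes without a far spot can shift too. The median male minus female difference of the 41 was -0.24 (range -1.11 to 1.30), with 30 below 0 and 11 above, beside a median of -0.06 over all 490 detected probes, 274 of them below 0 and 211 above. The median size of the difference, whatever its sign, was 0.35 for the members and 0.26 for the chip. After normalization the spots of the 2 arrays did not overlap for 63.4% of the 41 members and 43.1% of the 490 probes. A lack of overlap, given below for single probes, was thus common on the chip and reflects technical spread only. Before normalization the 490 probes read higher on the male array, at a median log2 difference of 0.37, and 33 of the 41 members read higher in the male, so the signs given here are relative to that shift.

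**Figure D2:**
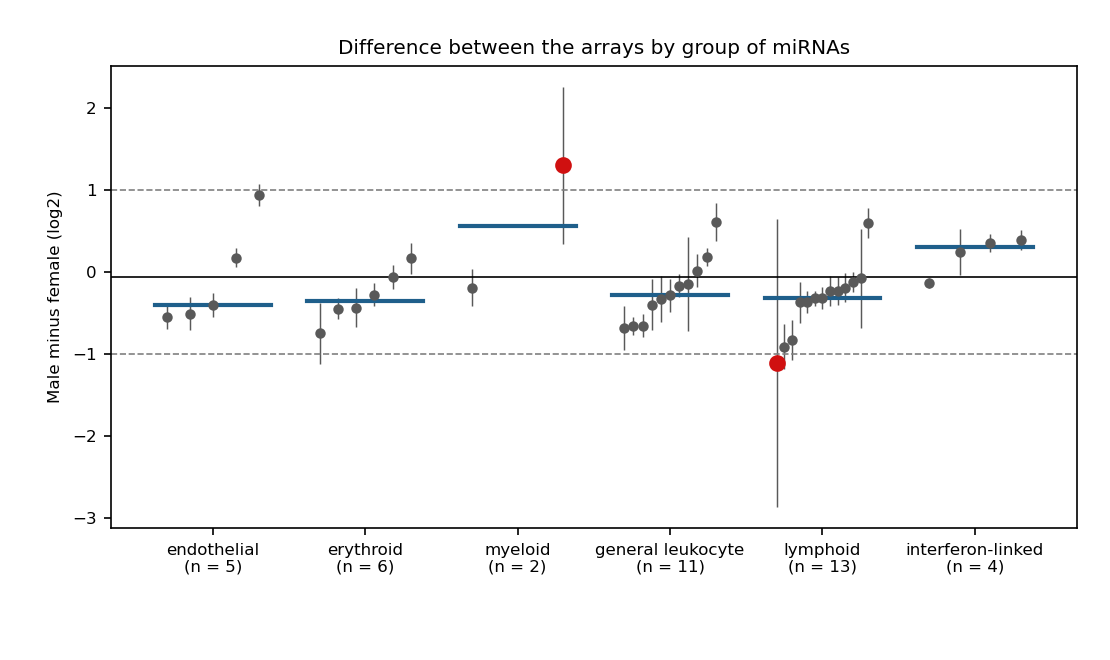
Male minus female difference on the log2 scale (vertical axis) of each detected probe by group, with bars of the combined SD over the repeat spots of both arrays. Thick lines are group medians, from -0.40 (endothelial) to 0.55 (myeloid), the thin line is the chip median of -0.06, dashed lines mark the size limit of 1, and the larger red points are dre-miR-223 and ola-miR-181a-5p.

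The endothelial miR-126 probes gave opposite readings after normalization, and none passed the rule. Without normalization all 5 detected probes read higher in the male. The 3p probe ccr-miR-126-3p read 12.16 ± 0.07 for the female and 11.61 ± 0.13 for the male gonad. ipu-miR-126a read 12.08 ± 0.15 and 11.56 ± 0.13, and dre-miR-126a-3p 11.95 ± 0.08 and 11.55 ± 0.12. These 3 probes were lower in the male by 0.55, 0.51 and 0.40, with no overlap of spots after normalization. Before correction their spots did overlap, as for ccr-miR-126-3p (3539 to 3909 in the female, 3511 to 4442 in the male). The 3 probes stand for a single sequence with or without a base at either end. ola-miR-126-3p, which ends 1 base before dre-miR-126a-3p, read 10.63 ± 0.07 and 10.80 ± 0.09, a difference of 0.17 with overlapping spots. dre-miR-126b-3p, a zebrafish paralogue that differs from dre-miR-126a-3p by the substitution A18G (counted from the 5′ end) and ends 1 base later, read 9.16 ± 0.06 for the female against 10.09 ± 0.12 for the male. It was thus higher in the male by 0.93 (1.91-fold), with no overlap, just short of the limit, and in the authors' deposited table the ratio was 1.99. The other arm, dre-miR-126a-5p, was at background on both arrays, with spot means 12.2 and 21.4 above the empty-spot median. The group median of -0.40 lay 0.17 to 0.37 below the chip median in each of the 15 settings for which the latter was also computed. It was nonetheless above 0 (0.20) without normalization. Such stability was not particular to miR-126. Each of the other groups also kept its side of the chip median in these settings, even the myeloid group (0.30 to 0.74 above it). All settings reuse the same 2 arrays.

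The erythroid miRNAs were slightly lower in the male relative to the chip, without a probe past the rule, although 4 of the 6 read higher in the male without normalization. dre-miR-451, the only miR-451 probe, read 13.26 ± 0.05 (female) and 12.81 ± 0.11 (male), a difference of -0.45 (1.36-fold) with no overlap of spots. It ranked 23rd of the 663 probes in brightness on the female array and 41st on the male. For miR-144, the other miRNA of the same cluster, the 5p arm gave 10.28 ± 0.19 and 9.53 ± 0.32 on pol-miR-144-5p. The difference was -0.75, or -0.69 with far spots left out, 1 low male spot of this probe among them. ola-miR-144, which reads the same arm shifted by a base, gave 9.35 ± 0.09 and 9.29 ± 0.11, a difference of -0.06 with overlapping spots. So the lower male reading of pol-miR-144-5p was not seen on its near-copy. On the 3p arm, ccr-miR-144 read 8.64 ± 0.07 and 8.36 ± 0.12, and pol-miR-144-3p 8.43 ± 0.13 and 7.99 ± 0.20, both lower in the male without overlap. dre-miR-144 read 7.42 ± 0.09 and 7.59 ± 0.17, a difference of 0.17 with overlapping spots. The group median of -0.36 was 0.30 below the chip median and the gap narrowed to 0.03 with 75th percentile scaling or with no normalization, so how far the red cell miRNAs stood from the chip depended on the scaling.

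The myeloid miRNA miR-223 was higher in the male on one probe and overlapped between the gonads on another. dre-miR-223 read 9.29 ± 0.95 on the female against 10.59 ± 0.09 on the male array, a difference of 1.30 (2.46-fold). Its female spots before correction were at 656 to 801 in 4 of 5 cases and at 179.9 in the fifth, while the male spots ran from 1709 to 2011. With far spots left out, the low one among them, the difference was 0.79, with the female at 9.80. The probe then no longer passed, although the remaining spots still did not overlap. The authors' deposited table gave 0.83 on the log2 scale with 50 added. ola-miR-223, whose target lacks only the last C of dre-miR-223, read 12.00 ± 0.15 and 11.80 ± 0.18, a difference of -0.19 with overlapping spots. The targets are thus the same but for 1 base at the 3′ end, and their male minus female differences lay 1.49 apart with all spots. With far spots left out the differences were 0.79 for dre-miR-223 and -0.14 for ola-miR-223. The group median of 0.55 is the mean of these 2 values, which disagree in sign after normalization and are both above 0 without it.

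**Figure D3:**
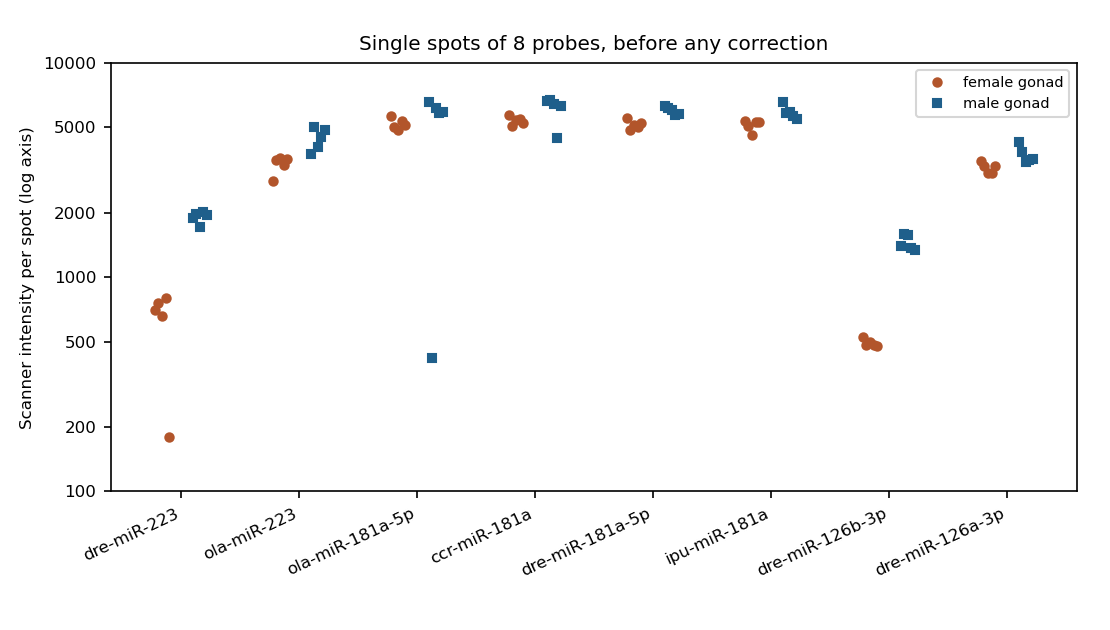
Scanner intensity of each of the 5 spots (vertical axis, log scale, no correction) of 8 probes in the female (circles) and male gonad (squares). The fifth female spot of dre-miR-223 at 179.9 and the second male spot of ola-miR-181a-5p at 419 lie far below the other spots of their probes, whereas all spots of dre-miR-126b-3p lie close together on either array.

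The general leukocyte miRNAs held no probe past the rule, with 8 of 11 detected probes below 0, 3 above and a median of -0.29, against 3 below and 8 above without normalization. For miR-142, the reading depended on arm and probe. On the 3p arm ipu-miR-142 read 13.27 ± 0.11 (female) and 12.62 ± 0.09 (male), and ccr-miR-142-3p 13.25 ± 0.04 and 12.59 ± 0.11. Both were lower in the male by 0.66 without overlap of spots, and they differ only by a last A. dre-miR-142a-3p, the same target as ipu-miR-142 with a U added at the 5′ end, read 10.09 ± 0.09 and 10.70 ± 0.22, higher in the male by 0.61 without overlap. The 3p probes of this leukocyte miRNA thus disagreed in sign by more than the spread of their spots.

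On the 5p arm of miR-142, dre-miR-142a-5p read 11.51 ± 0.06 and 11.69 ± 0.10, tni-miR-142b 11.57 ± 0.06 and 11.58 ± 0.20, and ola-miR-142 11.60 ± 0.18 and 11.46 ± 0.54. Their differences of 0.18, 0.01 and -0.15 came with overlapping spots. The last was 0.15 with far spots left out, 1 low male spot of ola-miR-142 among them. A substitution at base 12 separated detected from undetected probes: ccr-miR-142-5p and dre-miR-142b-5p carry A12C relative to dre-miR-142a-5p and tni-miR-142b. The latter probes read 2290 and 2361 above the median of the empty spots in the female and 4017 and 3805 in the male (means over 5 spots before normalization). The probes with C read 8.72 and 14.0 on the female array and 54.4 and 25.3 on the male, and 1 male spot of ccr-miR-142-5p at 217, against 104 to 137 for its other spots, made up much of its mean. Probes that differed by a single base inside the target thus read far apart on both arrays.

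The NF-kappaB-induced miR-146 read somewhat lower in the male after normalization. dre-miR-146a read 12.92 ± 0.02 and 12.64 ± 0.20, and ola-miR-146a-5p, 2 bases longer, 12.95 ± 0.09 and 12.55 ± 0.30. Both were lower in the male without overlap of spots. For ola-miR-146a-5p the difference was -0.26 in place of -0.40 with far spots left out, 1 low male spot among them. dre-miR-146b, the second member of the family, read 11.74 ± 0.06 and 11.57 ± 0.12 with overlapping spots. All 3 shared the seed and lay between -0.40 and -0.17. miR-155, induced in activated lymphocytes and macrophages, was dim. dre-miR-155 read 9.36 ± 0.15 and 9.03 ± 0.24 with overlap, and ipu-miR-155, 2 bases longer, 9.44 ± 0.23 and 8.75 ± 0.13 without. Both were lower in the male, by 0.33 and 0.69.

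In the lymphoid group 12 of 13 detected probes lay below 0 (median -0.32), and 11 of these 13 were miR-181 probes. Without normalization 3 of the 13 lay below 0. The 4 probes for miR-181a of the 5p arm share 19 bases. ccr-miR-181a read 12.65 ± 0.07 (female) and 12.27 ± 0.24 (male), dre-miR-181a-5p 12.59 ± 0.07 and 12.26 ± 0.06, and ipu-miR-181a 12.58 ± 0.09 and 12.21 ± 0.10. These were lower in the male by 0.33 to 0.37 without overlap of spots. ola-miR-181a-5p, which passed the rule, read 12.60 ± 0.09 and 11.49 ± 1.76, a difference of -1.11 (2.16-fold). Its male spots before correction were at 5821 to 6597 in 4 of 5 cases and at 419 in the other. With far spots left out, that spot among them, the male value was 12.31 and the difference was -0.28. With far spots left out for its near-copies too, including a low male spot of ccr-miR-181a, these read -0.27 (ccr-miR-181a), -0.32 (dre-miR-181a-5p) and -0.33 (ipu-miR-181a). The female-higher call for miR-181a therefore came from 1 spot.

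The 5 probes for miR-181b and miR-181c, whose targets differ by A1C besides their length, read 11.19 to 11.28 (female) and 10.92 to 11.16 (male), with differences of -0.32 to -0.12. Only dre-miR-181b (11.24 ± 0.11 and 10.92 ± 0.08) had no overlap of spots. The passenger arm of miR-181a stood further off. ola-miR-181a-3p read 8.47 ± 0.21 and 7.56 ± 0.18, and dre-miR-181a-3p 8.30 ± 0.19 and 7.47 ± 0.16, lower in the male by 0.91 and 0.83 without overlap and with no spot far from the others. Their targets differ by C16U and by a last base. With plain subtraction of the empty-spot median both passed the limit (-1.24 and -1.21), whereas with cyclic loess the differences were -0.49 and -0.51. Both probes were dim, with means 190.6 and 174 above the empty-spot median in the female and 174 and 152 in the male. Before normalization both thus read only slightly lower in the male, where 33 of the 41 members read higher.

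For miR-150, of mature lymphocytes, 1 of 2 probes read unlike miR-181 with all spots counted. That probe, dre-miR-150, was the dimmer of the 2 on both arrays. dre-miR-150 read 9.51 ± 0.09 (female) and 10.10 ± 0.16 (male), higher in the male by 0.59 without overlap. ola-miR-150, whose first base differs (A1U from the medaka to the zebrafish target) and which ends a base earlier, read 10.32 ± 0.08 and 10.24 ± 0.60. Its difference of -0.08 was 0.24 with far spots left out, 1 low male spot of this probe among them. With that spot left out both miR-150 probes lay above 0, while all 11 detected miR-181 probes lay below 0 after normalization.

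The interferon-linked miR-462 gave one of the brightest probes in both gonads. dre-miR-462 read 13.99 ± 0.04 (female) and 13.86 ± 0.04 (male), a difference of -0.13, and ranked 11th and 13th of the 663 probes. ipu-miR-462, with 1 more base at the 3′ end, read 12.89 ± 0.09 and 13.25 ± 0.06, higher in the male by 0.35. ola-miR-462, shifted by a base and 3 bases shorter than dre-miR-462, read 10.46 ± 0.07 and 10.84 ± 0.10, higher by 0.39. The lower male reading of dre-miR-462 depended on the scaling. Before correction its male spots (16279 to 17359) all lay above its female spots (13628 to 14763), the authors' deposited table gave 0.10, and with far spots of all probes left out before normalization the difference was 0.00. All 4 detected probes of the group read higher in the male without normalization. miR-731, from the same cluster, was barely seen. dre-miR-731 read 7.20 ± 0.14 and 7.44 ± 0.24 with overlapping spots, and ola-miR-731, which lacks the last 6 bases, was not detected on either array. The group median of 0.30 lay above the chip median in the same 15 settings, by 0.29 to 0.47. Every group kept its side of the chip median in them, and all settings reuse the same 2 arrays. Of the 4 detected probes, 3 were near-copies for miR-462, and the brightest, dre-miR-462, lay below the chip median of -0.06 after normalization.

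A regularity ran through these disagreements. Among detected members, 19 pairs of probes had targets that matched over at least 16 bases with at most 2 mismatches and differed in mean brightness by at least 0.5 on the log2 scale. In 19 of the 19 the dimmer probe had the higher male minus female difference. The median excess was 0.76 (0.03 to 1.49). The pairs came from 22 probes of miR-126, miR-142, miR-144, miR-181, miR-223 and miR-462, and they share probes. In 12 of them the targets had no mismatch, and the dimmer probe had the higher difference in all 12. The 3 miR-181 pairs all hold ola-miR-181a-5p with its low spot. Without such spots the count was 18 of 19 with a median of 0.62, without normalization it was 19, and in the authors' deposited table it was 18. Over related pairs elsewhere on the chip the dimmer probe had the higher difference in 270 of 340 (79.4%), and over 102488 pairs of unrelated detected probes in 49.7%. The pairs were chosen by sequence and brightness after the values had been seen, related probes elsewhere leaned the same way, and the cause was not tested.

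**Figure D4:**
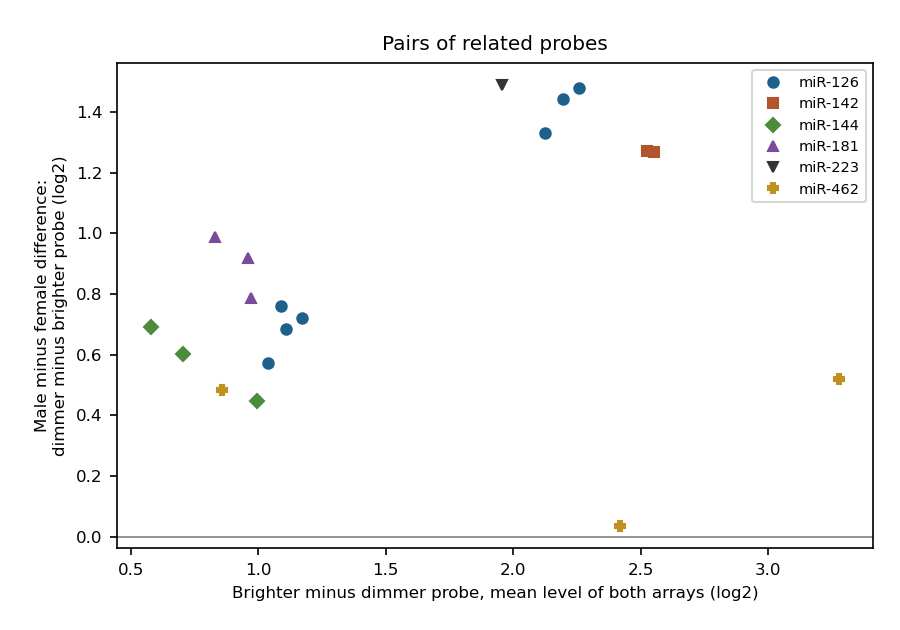
For 19 pairs of related detected probes, the gap in mean log2 brightness (horizontal axis) and the male minus female difference of the dimmer probe less that of the brighter (vertical axis, log2), marked by miRNA. All 19 points lie above 0, from 0.03 for the miR-462 pair of ola and ipu to 1.49 for the miR-223 pair.

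The male-higher readings of dre-miR-126b-3p (0.93), dre-miR-142a-3p (0.61) and dre-miR-223 (0.79 with far spots left out) each belonged to the dimmer of related probes. The brighter relatives ccr-miR-126-3p and ipu-miR-142 read -0.55 and -0.66, and ola-miR-223 read -0.14 with far spots left out. Another brighter relative of dre-miR-126b-3p, ola-miR-126-3p, read 0.17. The male-higher ipu-miR-462 (0.35) and ola-miR-462 (0.39) were likewise dimmer relatives of dre-miR-462 (-0.13). Where targets hold each other, only the probe with the highest level on either array was then kept. The group medians became -0.51 for endothelial (3 targets), -0.44 for erythroid (5), -0.19 for myeloid (1), -0.29 for general leukocyte (6), -0.24 for lymphoid (7) and 0.25 for interferon-linked miRNAs (3). The interferon-linked value was that of the dim dre-miR-731, whose spots overlapped. It lay between the values of dre-miR-462 (-0.13) and ola-miR-462 (0.39), which disagreed in sign. Overlapping targets that do not hold each other all stayed, such as ccr-miR-126-3p and ipu-miR-126a, which share 21 bases without a mismatch. By mean level of both arrays, dre-miR-146a and dre-miR-155 were brighter than the kept ola-miR-146a-5p and ipu-miR-155. Other tissue sets, for comparison, ranged widely. Striated muscle miRNAs (miR-1, miR-133 and miR-206) had a median of -0.25 over 17 detected probes and mesenchymal miR-143 and miR-145 a median of -0.10 over 5, both with 0 probes past the rule. The kidney and gut miRNAs miR-192 and miR-194 had a median of -1.11 over 6 detected probes, with 4 higher in the female by the rule. The liver miRNA miR-122 read higher in the male on both detected probes, by 1.26 and 1.32. On the female array both were close to background (6.56 and 6.59), and the offset shrinks differences of such dim probes. The part of other tissue in the RNA was not tested.

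Far-lying spots were counted for the members and for the whole chip. The member counts are small and were not tested against the chip. Spots over 0.5 from the median of their probe occurred in 6 of 41 detected members on the male array, all of them low, and in 1 of 41 on the female array, beside 39 of 430 (9.07%) and 47 of 476 (9.87%) detected probes on the whole chip. Most far spots on the chip were low as well, 35 of 40 on the male and 35 of 47 on the female array. Of the 6 male spots, 4 lay in chip column 9, those of ola-miR-142, ola-miR-146a-5p, ola-miR-150 and ola-miR-181a-5p, and they were the only far spots of detected probes in that column on the male array.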

How the data were processed

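The series holds 1 array per sex, grouped by the sex in the labels. Per the labels' protocols, small RNAs were isolated by size, tailed with poly(A) and ligated to a tag for dye staining. The deposited scanner files give, per the file headers, a median Cy3 intensity for each of 3968 spots, 5 per miRNA probe, with no background correction. Digit separators in large values were removed. The authors' deposited value table gives 1 linear intensity per probe; the sources used here do not state its method, and it served as an alternative.

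Scanner values were corrected by normexp (offset 50), averaged on the log2 scale over spots and quantile normalized over 663 probes with limma 3.58.1 in R 4.3.3. Python 3.11.15, numpy 2.4.6 and pandas 2.3.3 did the rest. The detection limits were 103 (female) and 113 (male), and the medians of 361 empty spots 86.7 and 80.5. Quantile normalization hides any global difference, and the offset shrinks differences of dim probes. The normalization and rule of size were tested on simulated data. There the spread over spots was capped below that of dre-miR-223 and ola-miR-181a-5p, so the simulation does not bear on calls resting on 1 low spot. Members, groups, named probes and rules were chosen with earlier results of these data known. Named in full were the brightest probe of each miRNA, probes past the rule or at 0.8 and over, and their near-copies. The alternatives are those in the closing section. Targets were not placed on a sturgeon genome, and targets and names are those of the chip design. The number of arrays limits the precision of every value.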

Additional observations from a re-analysis of the deposited data

How the results depend on the processing

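The counts of 1 male-higher and 1 female-higher member changed with many choices and stayed the same with as many others. The male-higher count was 2 with cyclic loess, 5 with no normalization, 2 with subtraction of the empty-spot median, 3 with a size limit of 0.6, and 0 in the authors' table, with the median of spots and with far spots left out. The female-higher count was 0 with cyclic loess, with no normalization, in the authors' table and with far spots left out, 3 with subtraction, 2 with offset 16 and 7 with a size limit of 0.6. With the median of spots it stayed at 1, but the probe was ola-miR-181a-3p. Leaving out each of the 5 repeat spots in turn gave 0 to 1 for either count; the 0 came without spot 5 (dre-miR-223) and without spot 2 (ola-miR-181a-5p). Values of dre-miR-223 ranged down to 0.70, and of ola-miR-181a-5p up to -0.22, over these settings.

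Group medians that moved by more than the spread over spots were, with no normalization, 0.20 (endothelial), 0.34 (erythroid), 1.11 (myeloid), 0.16 (general leukocyte), 0.23 (lymphoid) and 0.75 (interferon-linked), against a chip median of 0.37. With cyclic loess they were -0.25, -0.12, -0.18, -0.21 and 0.46 for the groups other than myeloid, in that order. With 75th percentile scaling they were -0.26 (erythroid), -0.44 (general leukocyte) and 0.15 (interferon-linked), against a chip median of -0.23. In the authors' table they were -0.28 (endothelial) and -0.22 (lymphoid). With undetected members included they were -0.15 (endothelial) and -0.17 (general leukocyte). With targets that hold each other reduced to 1, they were -0.51 (endothelial), -0.19 (myeloid) and -0.24 (lymphoid). The endothelial value still counted the near-copies ccr-miR-126-3p and ipu-miR-126a apart. With miR-142 and miR-146 counted as myeloid that median was -0.17. The other 92 recomputed medians and counts stayed within that spread or within 1.5 times the count. For the myeloid group, where dre-miR-223 had an SD of 0.95 on the female array, these included medians well below 0.55. They were 0.10 with undetected members included, 0.23 without repeat spot 5 and 0.32 with far spots left out. With the median of spots the myeloid value was 0.35, and in the authors' table it was 0.36. The causes were not tested. Signal over background limits dre-miR-731 most among the detected members, with means 52.6 (female) and 150.4 (male) above the empty-spot median. No paired analysis was possible because each sex has 1 array.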
